A study of Mus musculus with 18 samples.

Results

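Liver RNA of mice that lack the farnesoid X receptor (FXR) in every tissue was compared after oral GW4064 and after vehicle, in 3 whole-body FXR knockout mice of each treatment, which are 6 of the 18 arrays of the series. The other 12 arrays hold livers of wild-type (WT) mice and of mice whose FXR loss is limited to the liver. Each of these genotypes again has 3 vehicle and 3 GW4064 animals. These 12 arrays show where the whole-body knockout differs. They also entered the statistical model, which was fitted to all 18 arrays. Their spread therefore contributes to the standard errors and p-values given for the whole-body knockout. All mice were C57BL/6J males of 10 to 16 weeks. Per the labels, GW4064 at 150 mg per kg or vehicle was given by gavage at 6 p.m. and at 8 a.m., and the liver was taken 2 h after the last of these 2 doses; the methods of the study describe another dosing and another array, and only for WT mice, so the labels are followed. The allele behind each knockout and the Cre driver of the liver knockout are not given in the sources used here.

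FXR, encoded by Nr1h4, is a nuclear receptor that binds bile acids, pairs with RXR on DNA and holds bile acid synthesis in check. In the liver it induces Nr0b2, which encodes the corepressor SHP, and in the ileum it induces the hormone FGF15, and both lower Cyp7a1 and Cyp8b1, enzymes of bile acid synthesis. GW4064 is a synthetic FXR agonist that is widely used to switch these genes. In an animal with no FXR, the compound has no FXR to act on, so this comparison asks which liver transcripts differ between compound and vehicle without the receptor.

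The values are log2 expression levels after RMA, so a difference of 1 is 2 fold. Each gene is given as its 3 vehicle and its 3 GW4064 arrays in the order of replicates 1 to 3, and each difference is GW4064 minus vehicle with its standard error from limma. Hepatocyte markers were high and even in the 6 arrays, with a mean level of the 12 listed genes between 13.7 and 13.8. Of 13 pancreas and gut and 15 fat, muscle and kidney markers, 0 had an unadjusted p under 0.05 between the treatments. Of all genes, 2.88% were higher and 3.37% lower at that level. One array stood apart. GW4064 replicate 3 had a mean correlation of 0.987 with the other 5 knockout arrays, against 0.993 to 0.994 for each of those, and 205 of its genes lay more than 2 fold from the mean of the other 5, against 14 to 28. The main results are therefore given with and without that array, whose own pattern is described last. Because the tissue is bulk liver, fewer cells of a type and less RNA per cell cannot be told apart.

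The targeted gene was low in all 6 arrays. Nr1h4 read 4.21, 4.27 and 4.12 with vehicle and 4.14, 4.30 and 3.98 with GW4064, against 8.83 to 9.39 in the WT vehicle arrays. The difference with GW4064 was -0.06 ± 0.14, and in the liver knockout the same probe set read 4.17 to 4.69 with GW4064. Whether the probes lie in the deleted part is not stated.

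No gene passed an adjusted p of 0.05 in limma (0 of 12394, 0%), and the smallest adjusted p was 0.719. At an unadjusted p under 0.05, 357 genes were higher (2.88%) and 418 lower (3.37%) with GW4064, 775 in all. With 1.5 fold added, the thresholds that the study used, 41 genes were higher (0.331%) and 26 lower (0.21%). The methods' t-test called 11 genes at those thresholds and 0 after adjustment. In WT livers, the same model called 24 genes at the adjusted threshold (0.194%), and 97 higher (0.783%) and 115 lower (0.928%) at the thresholds of the study. In the liver knockout it called 28 higher (0.226%) and 29 lower (0.234%) at the latter.

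The count of genes depended on single animals. Without GW4064 replicate 3, the 67 genes at the study's thresholds became 17, of which 14 were higher (0.113%) and 3 lower (0.0242%), 206 genes were higher (1.66%) and 217 lower (1.75%) at an unadjusted p under 0.05, and 1 gene passed the adjusted threshold (0.00807%). Only 10 genes stood in both counts, 14.9% of the 67. All 67 kept their sign without replicate 3, and 19 of them kept a difference above 1.5 fold. The arrays left in had also helped to pick the 67, so the kept signs are no independent check. Leaving out GW4064 replicate 1 or replicate 2 instead gave 167 and 171 genes, and leaving out vehicle replicate 1, 2 or 3 gave 49, 46 and 89. The adjusted threshold was passed by Mmp13, Slc25a47, Sult1e1 and Tfrc without GW4064 replicate 2, and by Efr3a without vehicle replicate 2. By overlap alone, the 3 GW4064 arrays all lay above the 3 vehicle arrays in 544 genes (4.39%) and all below in 738 (5.95%).

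Alas1, which encodes the rate-limiting enzyme of heme synthesis in the liver, was higher in all 3 GW4064 arrays. Alas1 read 10.52, 11.26 and 11.14 with vehicle and 11.97, 12.10 and 11.98 with GW4064, a difference of 1.04 ± 0.21 (adjusted p = 0.719, limma). The groups did not overlap, the 3 GW4064 arrays were close to each other, and without replicate 3 the difference was 1.06. The vehicle arrays were the low side of this pair, since the 12 arrays of the other genotypes read 11.44 to 12.68, a range that holds all 3 GW4064 arrays. In WT the difference was 0.12 ± 0.21, and in the liver knockout it was -0.64 ± 0.21.

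Tfrc, the transferrin receptor that brings iron into cells, was also higher. Its values were 7.61, 8.13 and 8.12 with vehicle and 9.59, 8.62 and 9.71 with GW4064, a difference of 1.35 ± 0.27 (adjusted p = 0.719). All 3 GW4064 arrays lay above the vehicle arrays, replicate 2 least so, and the difference was 1.15 without replicate 3. In the liver knockout Tfrc differed by 0.78 ± 0.27 and in WT by 0.23 ± 0.27. Other genes of iron handling differed little, by 0.038 for Tfr2, -0.029 for ferritin heavy chain Fth1 and 0.13 for the iron hormone Hamp.

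Igf2bp3, an RNA-binding protein of fetal tissues and tumors, read 4.68, 4.71 and 4.93 with vehicle and 5.43, 5.19 and 5.52 with GW4064, with no overlap and a difference of 0.61 (0.54 without replicate 3). Its level was low throughout. Efr3a, a scaffold for a lipid kinase at the plasma membrane, read 8.06, 8.77 and 8.05 with vehicle and 8.93, 8.87 and 8.79 with GW4064, all GW4064 arrays just above the highest vehicle array. Etfbkmt, a methyltransferase of a mitochondrial electron carrier, read 8.95, 9.16 and 8.92 with vehicle and 9.28, 9.94 and 9.57 with GW4064 and differed by 0.59 ± 0.20 here, by 1.0 ± 0.20 in the liver knockout and by -0.24 ± 0.20 in WT. The tubulin gene Tubb6 read 5.83, 5.86 and 6.03 with vehicle and 6.58, 6.32 and 7.99 with GW4064, a difference of 1.06 (0.54 without replicate 3), with no overlap and replicate 3 the highest. Another tubulin gene, Tuba8, differed by 1.17 (0.52 without replicate 3) and the protease gene Mmp13 by 0.69 (0.43), both with overlap between the groups and replicate 3 the highest.

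Without replicate 3, Pls1 was the 1 gene past the adjusted threshold. Pls1 encodes plastin 1, an actin-bundling protein of epithelial cells, and read 4.56, 4.69 and 4.68 with vehicle and 5.58, 5.27 and 4.68 with GW4064. GW4064 replicates 1 and 2 lay above all vehicle arrays, and replicate 3 read the same as vehicle. These levels were low, below the array medians of 5.96 to 6.0. The difference was 0.78 ± 0.10 without replicate 3 (adjusted p = 0.00899, limma) and 0.53 ± 0.15 with it (adjusted p = 0.731). A fit on the whole-body knockout arrays alone did not call it. Pnpla3, a lipase of lipid droplets, owed its place among the 14 to 1 animal, with 6.65 in GW4064 replicate 1 against 5.21 to 5.43 in the other 5 arrays. Cap1, an actin-regulating protein, read 6.11, 6.26 and 6.17 with vehicle and 6.57, 7.03 and 6.43 with GW4064, and the chromatin remodeler Atrx read 5.82, 5.59 and 6.46 with vehicle and 6.52, 6.80 and 6.28 with GW4064, where the lowest GW4064 array lay below the highest vehicle array and 3 of 5 probe sets had the sign given.

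Among the genes that were lower, Gba2, a glucosylceramidase that also acts on bile acid glucosides, read 6.97, 6.49 and 6.85 with vehicle and 6.23, 6.19 and 5.93 with GW4064. The groups did not overlap, and the difference was -0.65 ± 0.15 (adjusted p = 0.729) and -0.56 without replicate 3. The other of the 2 Gba2 probe sets had the opposite sign. Smad6, an inhibitor of BMP signalling that BMP itself induces, read 6.64, 6.18 and 5.98 with vehicle and 5.83, 5.60 and 5.39 with GW4064, a difference of -0.66 ± 0.17. The GW4064 arrays lay below the vehicle arrays, and in WT the difference was -0.47 ± 0.17. Slc25a47, a carrier of the hepatocyte mitochondrion, read 11.88, 11.85 and 11.65 with vehicle and 11.01, 11.62 and 10.87 with GW4064. GW4064 replicate 2 was close below the vehicle arrays and the other GW4064 arrays were further below.

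Efna1, which encodes the membrane-bound ligand ephrin A1, had the largest difference without replicate 3 among genes at an unadjusted p under 0.05. It read 9.49, 8.72 and 7.99 with vehicle and 7.38, 6.69 and 8.06 with GW4064, a difference of -1.36 ± 0.35 with all arrays and -1.70 ± 0.36 without replicate 3 (adjusted p = 0.729 and 1). The vehicle arrays were far apart, and GW4064 replicate 3 lay among them. Vehicle replicates 1 and 2 exceeded the highest of the 12 arrays of the other genotypes, 8.10. The immediate-early genes Nr4a1, an orphan nuclear receptor, and Ccn1, a matrix-associated signalling protein, differed by -0.76 ± 0.24 and -0.70 ± 0.23, with vehicle replicate 1 the highest array in both. Klf10, a zinc-finger repressor, differed by -1.42 ± 0.48 and Herpud1, a protein of endoplasmic reticulum degradation, by -0.63 ± 0.21. Both were lowest in replicate 3, at 5.31 and 10.82, and without it the differences were -0.86 and -0.36, neither at an unadjusted p under 0.05.

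**Figure D1:**
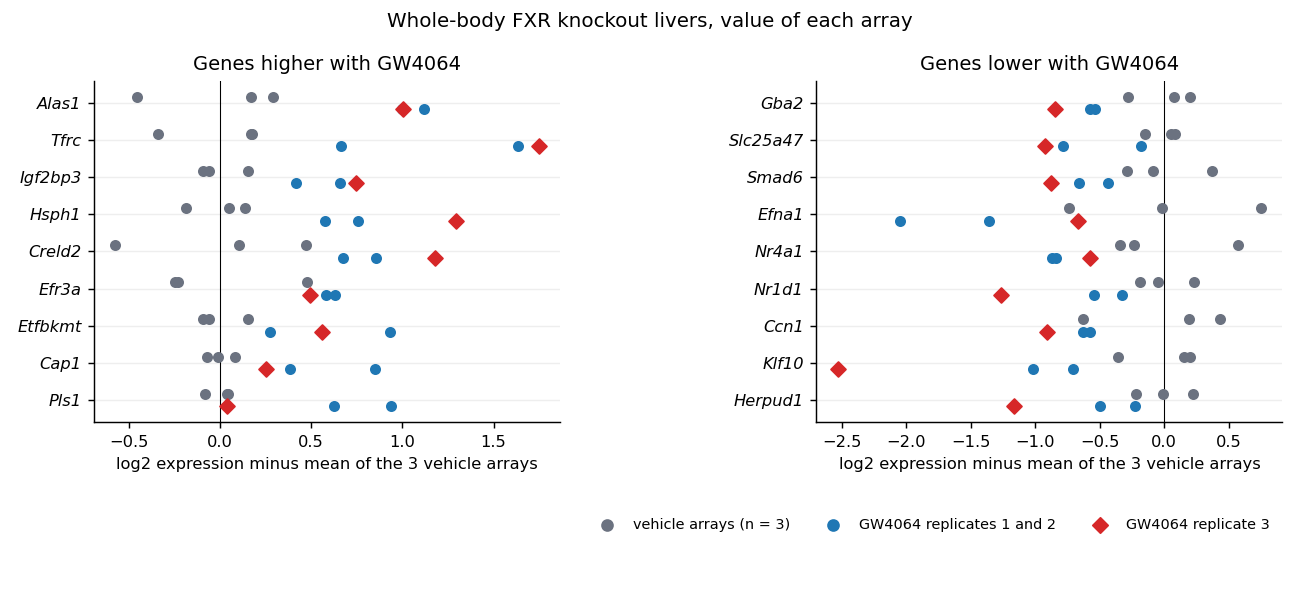
Values of single arrays for 9 genes that were higher and 9 that were lower with GW4064 in whole-body FXR knockout livers; each point is 1 array, plotted as its log2 expression minus the mean of the 3 vehicle arrays (grey, vehicle; blue, GW4064 replicates 1 and 2; red diamond, GW4064 replicate 3). Alas1 has 3 GW4064 arrays close together above the vehicle arrays, whereas Pls1 is higher in replicates 1 and 2 and at the vehicle level in replicate 3.

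For most of the genes that respond to GW4064 in WT, the difference was small without FXR. Of the 24 genes past the adjusted threshold in WT, 21 differed by less than 1.5 fold in the knockout, the others being Lcn2, Prg4 and Nr0b2. In the knockout, 2 of the 24 had an unadjusted p under 0.05 in the WT direction, the endothelial ligand Bmp6 and the lipoyl transferase Lipt2, while Nr0b2 had one in the opposite direction. Of all genes, 2.88% were higher and 3.37% lower at that level in the knockout. Csad, which makes taurine for bile acid conjugation, read 11.29, 11.66 and 11.29 with vehicle and 10.49, 11.52 and 11.40 with GW4064, a difference of -0.28 ± 0.30 against -2.76 ± 0.30 in WT. Cyp8b1, the sterol 12-hydroxylase, differed by -0.34 ± 0.42 against -2.44 ± 0.42, and Cyp7a1, the rate-limiting enzyme of bile acid synthesis, by 0.32 ± 0.69 against -2.87 ± 0.69. In the liver knockout, Csad differed by -1.99 ± 0.30 and Cyp7a1 by -0.98 ± 0.69. The deubiquitinase gene Usp2 differed by -0.28 ± 0.22 here and 1.42 ± 0.22 in WT, and the interleukin-1 receptor gene Il1r1 by -0.39 ± 0.31 and 1.62 ± 0.31.

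Nr0b2, the classical FXR target, was lower rather than higher. It read 8.77, 8.16 and 8.16 with vehicle and 8.04, 7.77 and 7.04 with GW4064, a difference of -0.75 ± 0.34 (adjusted p = 0.794). All 3 GW4064 arrays lay below the vehicle arrays, replicate 3 by most, and without it the difference was -0.46. In WT the GW4064 arrays read 9.04 to 10.84 against 7.85 to 8.21, a difference of 1.85 ± 0.34, and in the liver knockout the difference was 0.91 ± 0.34. The difference between the WT and knockout effects was 2.59 ± 0.48, with an adjusted p of 0.193 in limma.

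That test of the difference called no gene. For the WT effect minus the whole-body knockout effect, 0 of 12394 genes (0%) passed the adjusted threshold, with a smallest adjusted p of 0.193 shared by Csad, Nr0b2, Usp2 and Xdh, the last encoding xanthine dehydrogenase, and by Samd4, an RNA-binding repressor of translation. At an unadjusted p under 0.05 there were 1017 such genes (550 with the greater value in WT). The liver knockout effect minus the whole-body knockout effect likewise passed in 0 genes (0%), with 604 at an unadjusted p under 0.05. A gene called in WT and not here is therefore not shown to differ between the genotypes.

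**Figure D2:**
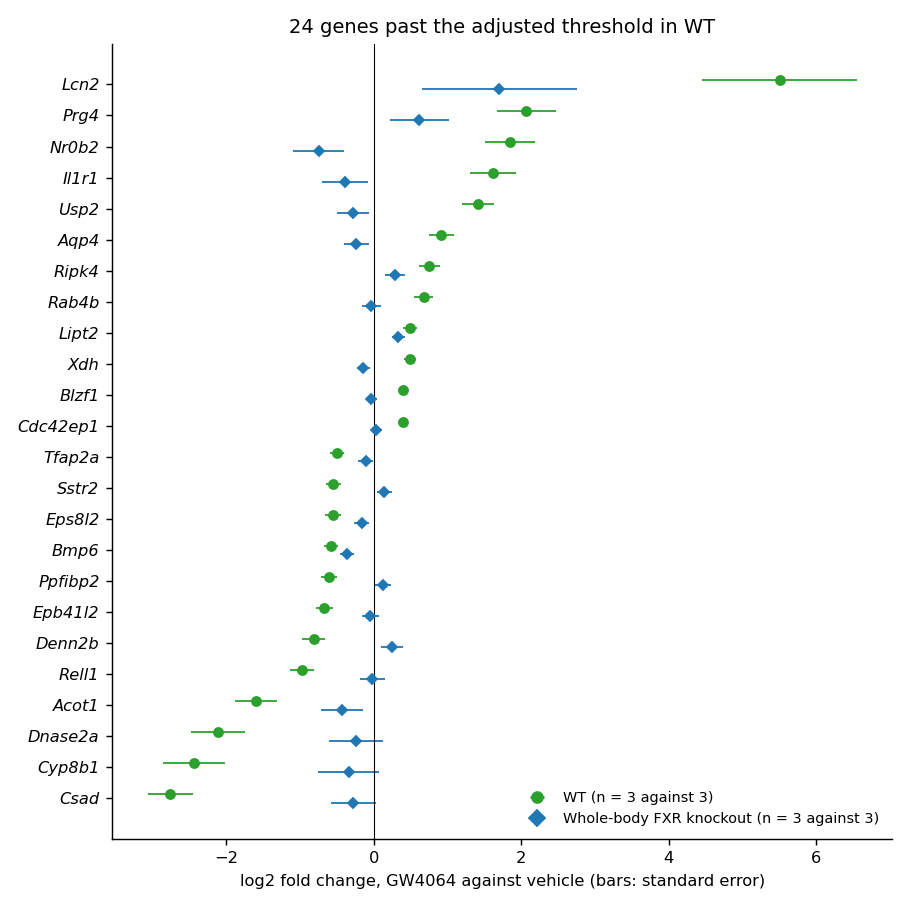
GW4064 effect on the 24 genes past the adjusted threshold in WT, as log2 fold change with its standard error (x axis), in WT (green circles) and in whole-body FXR knockout livers (blue diamonds), 3 arrays against 3 in each. The WT points reach 5.50 for Lcn2 and -2.76 for Csad, whereas most knockout points lie near 0 and that of Nr0b2 lies at -0.75.

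Of 26 known FXR targets of liver, 2 were higher and 2 lower at an unadjusted p under 0.05, with a median difference of 0.024 (0.034 without replicate 3), beside -0.012 for all genes, of which 2.88% were higher and 3.37% lower. Without replicate 3, 0 of the 26 were higher and 0 lower. The 4 genes were Pdk4, a kinase that turns off pyruvate oxidation (0.54 ± 0.23, and -0.67 ± 0.23 in WT), the heparan sulfate carrier Sdc1 (0.50 ± 0.20, and 0.20 without replicate 3), Nr0b2, and the bile salt export pump Abcb11 (-0.32 ± 0.14). Pdk4 read 6.42, 5.92 and 5.50 with vehicle and 6.47, 6.52 and 6.48 with GW4064. The 3 GW4064 arrays were even and the vehicle arrays were not. Abcb11 was at 10.21 in replicate 3 and between 10.91 and 11.13 in the other 5 arrays. Among 20 genes of bile acid synthesis and conjugation, 0 were higher and 2 lower, Hsd3b7 (-0.24 ± 0.11) and Cyp27a1 (-0.33 ± 0.15), an early enzyme of the main and of the alternative route. Without replicate 3 these were -0.16 and -0.13. Among 13 transporters of bile acids and biliary lipids, Abcb11 and the uptake carrier Slc10a1 (-0.26 ± 0.11) were lower and none was higher. Neither list had a gene at an unadjusted p under 0.05 without replicate 3.

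Genes of the circadian clock differed in both directions. The clock is a loop in which BMAL1 (Arntl) and its partners CLOCK or NPAS2 switch on E-box genes, among them the repressors REV-ERB alpha and beta (Nr1d1, Nr1d2) and the output factors Dbp and Tef, while the REV-ERBs repress Arntl and Npas2. Of 23 listed genes, 3 were higher and 5 lower at an unadjusted p under 0.05, beside 2.88% and 3.37% of all genes. Arntl read 7.98, 7.37 and 7.10 with vehicle and 8.00, 8.17 and 8.39 with GW4064, a difference of 0.70 ± 0.25, and Npas2 read 4.72, 4.75 and 4.80 with vehicle and 4.88, 5.40 and 5.81 with GW4064, a difference of 0.61 ± 0.20. For both, every GW4064 array lay above every vehicle array, narrowly so for Arntl, where vehicle replicate 1 almost reached GW4064 replicate 1. Nr1d1 read 7.90, 7.75 and 8.17 with vehicle and 7.62, 7.40 and 6.68 with GW4064, a difference of -0.71 ± 0.20, and Tef read 8.70, 8.96 and 8.88 with vehicle and 8.49, 8.43 and 8.38 with GW4064, a difference of -0.41 ± 0.13. Both were lower in all GW4064 arrays. Dbp differed by -0.97 ± 0.43, Nr1d2 by -0.35 ± 0.13 and the period gene Per3 by -0.42 ± 0.18, with replicate 3 the lowest array in each of these 3 genes. Dbp alone overlapped between the groups. Of 3 probe sets each, 2 of Tef and 1 of Per3 had the sign given.

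The clock genes kept these signs without replicate 3, with smaller sizes. Arntl then differed by 0.60, Npas2 by 0.38, Nr1d1 by -0.43, Tef by -0.39 and Dbp by -0.53. At an unadjusted p under 0.05, 2 genes of the list were higher and 2 lower, beside 1.66% and 1.75% of all genes. The eighth gene of the count with all arrays was Tfrc, whose transcript is a known clock output in mouse liver. In WT, Arntl differed by -0.95 ± 0.25 and Tef by 0.27 ± 0.13, opposite in sign to the knockout, as were Npas2 (-0.27 ± 0.20), Dbp (0.63 ± 0.43) and Per3 (0.19 ± 0.18). Nr1d1 differed by -0.27 ± 0.20 in WT, the same sign as in the knockout, and Nr1d2 by -0.0095 ± 0.13. The WT effect minus the knockout effect was -1.65 ± 0.35 for Arntl (adjusted p = 0.224) and 0.68 ± 0.19 for Tef (adjusted p = 0.424). The vehicle arrays of the other genotypes read 6.50 to 7.55 for Arntl in WT and 6.37 to 6.78 in the liver knockout. The labels give 1 sampling time for all animals and no order of sampling, so its part in these values was not tested.

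The promoters of Arntl, Tef, Per3 and Nr0b2 are shown because they hold letters that the factors of this loop read, with 250 bases before and 50 after the annotated start (RefSeq, GRCm38.p6). Capitals mark a match on either strand to TAGGTCA, the core of the element bound by ROR and REV-ERB receptors, in Arntl (second of 2 listed starts, chr7:113207261-113207560, plus strand), to the E-box CACGTG in Tef (first of 2 listed starts, chr15:81802423-81802722, plus strand) and Nr0b2 (chr4:133553126-133553425, plus strand), and to the D-box TTANGTAA, read by DBP and TEF, in Per3 (chr4:151044616-151044915, minus strand).
Arntl: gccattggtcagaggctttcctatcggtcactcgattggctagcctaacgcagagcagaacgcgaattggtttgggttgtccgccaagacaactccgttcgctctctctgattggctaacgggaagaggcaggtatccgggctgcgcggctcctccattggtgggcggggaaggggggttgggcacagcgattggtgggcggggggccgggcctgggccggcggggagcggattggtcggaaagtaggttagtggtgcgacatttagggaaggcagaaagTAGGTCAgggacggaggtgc
Tef: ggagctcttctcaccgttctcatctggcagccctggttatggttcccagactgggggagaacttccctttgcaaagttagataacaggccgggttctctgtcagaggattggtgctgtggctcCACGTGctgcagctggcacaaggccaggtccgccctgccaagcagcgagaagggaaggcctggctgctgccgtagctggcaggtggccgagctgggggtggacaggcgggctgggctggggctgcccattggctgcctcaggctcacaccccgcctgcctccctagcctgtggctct
Per3: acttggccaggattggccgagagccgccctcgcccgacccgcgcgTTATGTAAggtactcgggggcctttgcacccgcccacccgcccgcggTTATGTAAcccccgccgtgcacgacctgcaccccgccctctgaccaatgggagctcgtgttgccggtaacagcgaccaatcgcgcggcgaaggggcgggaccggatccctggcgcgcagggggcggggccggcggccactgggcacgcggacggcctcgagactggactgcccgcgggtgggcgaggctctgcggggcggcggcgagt
Nr0b2: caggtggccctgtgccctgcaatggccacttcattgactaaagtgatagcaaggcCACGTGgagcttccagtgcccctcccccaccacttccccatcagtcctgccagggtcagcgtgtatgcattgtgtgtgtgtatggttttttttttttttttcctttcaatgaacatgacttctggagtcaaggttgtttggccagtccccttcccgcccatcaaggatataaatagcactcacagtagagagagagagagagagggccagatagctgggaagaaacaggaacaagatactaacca
Per3 holds 2 matches and the others 1 each. Of 32851 listed promoter windows of the same length, 2.61% hold the first motif, 7.15% the E-box and 2.32% the D-box, and the motifs do not overlap in the windows shown. The E-box reads the same on both strands. The windows of Npas2, Nr1d1, Nr1d2 and Dbp hold none of the 3 strings. A match is a string of letters and was not tested as a site.

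Markers of liver endothelium, the cells that line the sinusoids, lay mostly below vehicle. Of 22 listed genes, 20 had a negative difference, whereas 45.9% of all genes lay above 0, and the median was -0.27. At an unadjusted p under 0.05, 8 were lower and 0 higher, beside 3.37% and 2.88% of all genes. Without replicate 3, 21 were below 0 and the median was -0.17, and 3 were lower and 0 higher, beside 1.75% and 1.66% of all genes. Bmp6, which sinusoidal cells secrete to set hepcidin, read 5.06, 4.89 and 4.96 with vehicle and 4.75, 4.57 and 4.52 with GW4064, a difference of -0.36 ± 0.094 (adjusted p = 0.729), with no overlap. In WT it differed by -0.57 ± 0.094 (adjusted p = 0.0433) and in the liver knockout by 0.064 ± 0.094. Clec4g, a sinusoidal lectin, read 9.56, 9.59 and 9.35 with vehicle and 9.13, 9.12 and 8.65 with GW4064, a difference of -0.53 ± 0.15. All 3 GW4064 arrays lay below the vehicle arrays, but the other of the 2 Clec4g probe sets had the opposite sign. The VEGF receptors Flt4 (-0.31 ± 0.11) and Kdr (-0.31 ± 0.13), the phosphatase Ptprb (-0.37 ± 0.15), the scavenger receptor Stab2 (-0.33 ± 0.14), Oit3 (-0.53 ± 0.23) and Pecam1 (-0.31 ± 0.14) were the others. Lyve1 (0.098) and Flt1 (0.056) were the 2 with positive values. The list's median was -0.39 in WT and 0.0024 in the liver knockout.

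Collagens read higher. Of 20 stellate cell and fibroblast markers, 6 were higher and 0 lower at an unadjusted p under 0.05, beside 2.88% and 3.37% of all genes. Of the 20, 13 were above 0 (median 0.12), beside 45.9% of all genes. Without replicate 3, 1 was higher and 0 lower, beside 1.66% and 1.75% of all genes, and 14 were above 0 (median 0.086), beside 48.0%. All 6 encode matrix proteins or an inhibitor of matrix breakdown. Col4a1, of basement membranes, read 8.07, 7.87 and 8.09 with vehicle and 8.39, 8.27 and 8.77 with GW4064, a difference of 0.47 ± 0.15, and Col1a2, of fibrillar collagen, read 7.56, 7.24 and 7.60 with vehicle and 7.86, 7.86 and 8.07 with GW4064, a difference of 0.46 ± 0.16. Neither gene overlapped between the groups. Col1a1 (0.56 ± 0.20), Col3a1 (1.02 ± 0.45), Col4a2 (0.27 ± 0.12) and Timp1 (0.24 ± 0.092) were the others, each highest in replicate 3. Without that array only Col1a2 kept an unadjusted p under 0.05, at 0.39 ± 0.18, and Col3a1 read 0.74 ± 0.49. The contractile and vitamin A genes of the same list did not follow, with -0.14 for Acta2, -0.051 for Des and -0.046 for Lrat. In WT the collagens had negative differences, -0.61 ± 0.15 for Col4a1 and -1.16 ± 0.45 for Col3a1, and the WT effect minus the knockout effect was -1.08 ± 0.22 for Col4a1 (adjusted p = 0.224).

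Of 19 heat shock and folding genes, 5 were higher at an unadjusted p under 0.05 and 0 lower, beside 2.88% and 3.37% of all genes. A positive difference was seen in 17, beside 45.9% of all genes, with a median of 0.19. Without replicate 3, 2 were higher and 0 lower, beside 1.66% and 1.75% of all genes. In that fit 14 had a positive difference, beside 48.0% of all genes, and the median was 0.13. Hsph1, a nucleotide exchange factor of HSP70, read 8.54, 8.63 and 8.30 with vehicle and 9.25, 9.07 and 9.79 with GW4064, a difference of 0.88 ± 0.28 with all arrays and 0.67 ± 0.29 without replicate 3. Every GW4064 array lay above every vehicle array. Stip1, which hands clients from HSP70 to HSP90, read 7.74, 7.91 and 7.71 with vehicle and 8.32, 8.04 and 8.22 with GW4064, again with no overlap. Chordc1 (0.43 ± 0.16), Dnaja1 (0.24 ± 0.10) and Hspa8 (0.30 ± 0.14) completed the 5. The stress-inducible Hspa1b read 10.69, 10.16 and 9.77 with vehicle and 10.81, 10.29 and 11.35 with GW4064, with overlap. In WT the list's median was -0.23.

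The promoter of Hsph1 is shown for 1 of 2 overlapping windows (RefSeq, GRCm38.p6, chr5:149636266-149636565, minus strand). Capitals mark the string GAANNTTC, 1 arrangement of the core of the heat shock element, which reads the same on both strands. The marked match starts 20 bases after the annotated start.
Hsph1: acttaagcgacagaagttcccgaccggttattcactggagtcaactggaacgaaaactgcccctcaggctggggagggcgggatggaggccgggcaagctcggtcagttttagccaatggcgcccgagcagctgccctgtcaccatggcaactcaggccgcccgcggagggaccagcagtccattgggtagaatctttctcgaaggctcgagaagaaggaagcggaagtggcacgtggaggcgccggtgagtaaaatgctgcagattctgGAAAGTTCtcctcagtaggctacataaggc
The string was in 7.86% of all windows. It was in both of Hsph1, in the 1 window of Chordc1 and in 1 of 3 of Dnaja1, and not in that of Stip1. The window shown also holds 1 E-box, left in lower case, which does not overlap the marked string. Other arrangements of the heat shock element were not searched, so a window without the string is not shown to lack the element.

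Of 24 genes of endoplasmic reticulum stress, 5 were higher and 2 lower at an unadjusted p under 0.05, beside 2.88% and 3.37% of all genes. Without replicate 3, 3 were higher and 1 lower, beside 1.66% and 1.75%. In both fits 17 of the 24 had a positive difference, beside 45.9% of all genes with replicate 3 and 48.0% without it. The higher ones were Creld2 and Manf, secreted stress proteins, the disulfide isomerase Pdia4, the lumenal chaperone Hspa5 and the stress factor Atf3. Creld2 read 8.66, 9.03 and 7.99 with vehicle and 9.23, 9.41 and 9.74 with GW4064, a difference of 0.90 ± 0.30 with no overlap, and Hspa5, the chaperone BiP, differed by 0.30 ± 0.12. The lower ones were Herpud1 and Trib3, a pseudokinase of the integrated stress response, which read 7.05, 7.02 and 7.13 with vehicle and 6.47, 6.80 and 6.29 with GW4064, a difference of -0.55 ± 0.15 with no overlap. The death-linked factor Ddit3 differed by 0.37 ± 0.22, with replicate 3 at 7.54 and the other 5 arrays between 6.55 and 6.82.

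**Figure D3:**
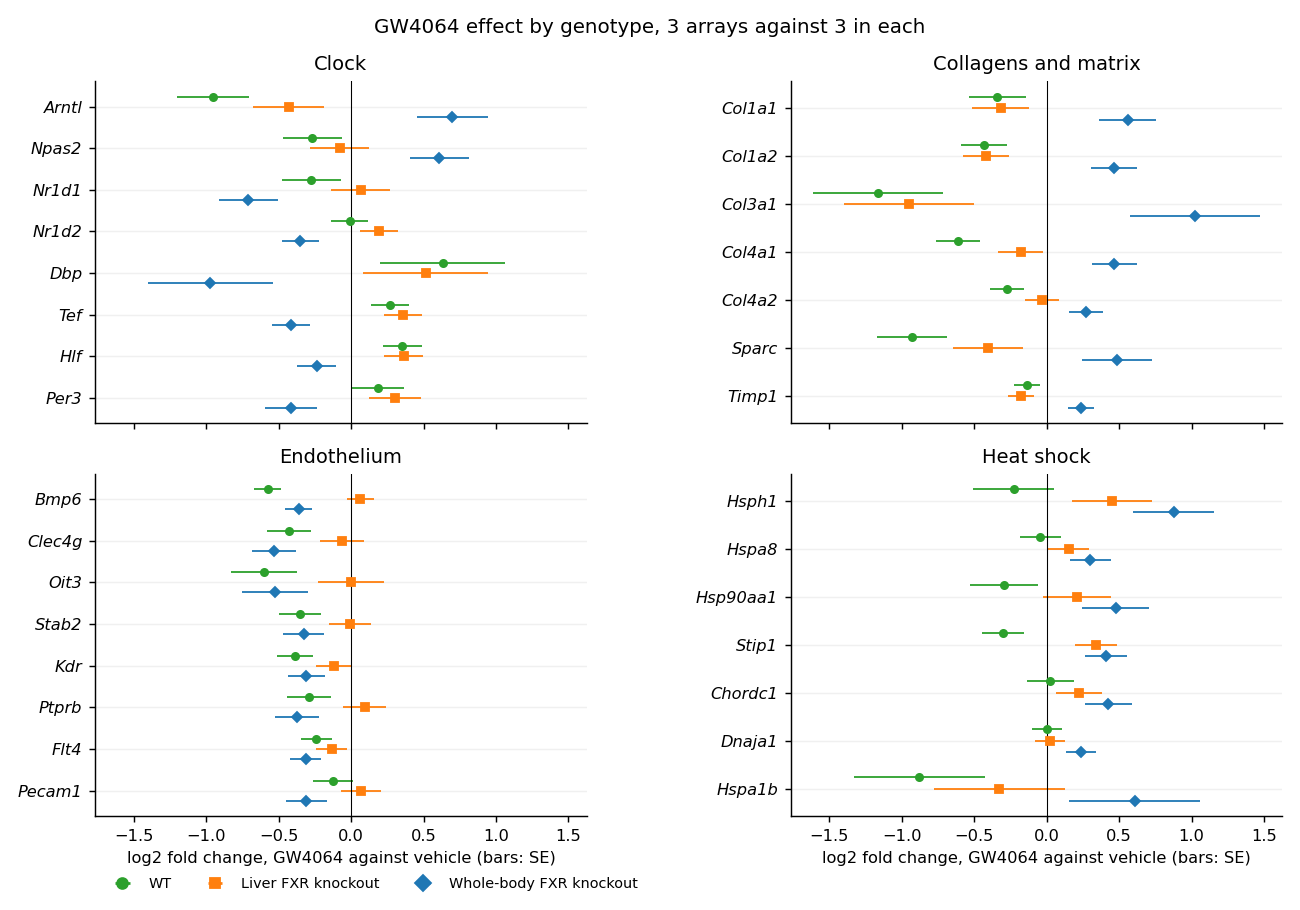
GW4064 effect on clock, matrix, endothelial and heat shock genes, as log2 fold change with its standard error (x axis), in WT (green circles), liver FXR knockout (orange squares) and whole-body FXR knockout livers (blue diamonds), 3 arrays against 3 in each. Arntl and the collagens lie above 0 in the whole-body knockout and below 0 in WT, whereas the endothelial genes lie below 0 in both.

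Of 31 nuclear receptor genes, 5 were lower at an unadjusted p under 0.05 and 0 were higher, beside 3.37% and 2.88% of all genes. Without replicate 3 these counts were 4 and 0, beside 1.75% and 1.66% of all genes. The 5 were Nr1d1, Nr1d2, Nr4a1, Nr0b2 and Rara, a retinoic acid receptor. Rara read 5.51, 5.72 and 5.57 with vehicle and 5.27, 5.10 and 5.05 with GW4064, a difference of -0.46 ± 0.14 with no overlap and -0.41 without replicate 3. The receptors for drugs and fatty acids differed by 0.18 ± 0.23 for the pregnane X receptor gene Nr1i2, -0.16 ± 0.24 for Nr1i3, which encodes the receptor CAR, and -0.15 ± 0.19 for Ppara.

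The median of PXR and CAR targets relative to the vehicle mean was 0.58 in replicate 3 and -0.11 to 0.14 in the other 5 arrays. Of the 31 genes, Alas1, Cyp2b13, Cyp2c55 and Sult1e1 were higher at an unadjusted p under 0.05 with all arrays, beside 2.88% of all genes. Alas1 alone was higher without replicate 3, beside 1.66% of all genes. None was lower in either fit, beside 3.37% and 1.75% of all genes. The list's median difference was 0.13 with all arrays and -0.06 without replicate 3. Cyp2b10, a marker of CAR activity, read 8.67, 8.54 and 9.75 with vehicle and 9.80, 9.19 and 11.17 with GW4064. Vehicle replicate 3 lay between GW4064 replicates 2 and 1, so the groups overlapped. Cyp2c55 read 8.12, 7.88 and 9.01 with vehicle and 8.92, 9.07 and 10.91 with GW4064, a difference of 1.29 ± 0.58 and of 0.65 ± 0.55 without replicate 3. Cyp3a11, the main drug-oxidising enzyme of the family, differed by 0.093 ± 0.081. Of 9 targets of the aryl hydrocarbon receptor and 20 of NRF2, 0 and 1 were higher with all arrays and none was lower. These counts stand beside 2.88% of all genes higher and 3.37% lower.

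Genes of sterol synthesis spread widely among the GW4064 animals. Relative to the vehicle mean, the median of 20 cholesterol genes was 0.37, -0.56 and -0.50 in GW4064 replicates 1, 2 and 3, against -0.12 to 0.11 in the vehicle arrays. Of the 20, 18 had a negative difference (median -0.23), whereas 45.9% of all genes lay above 0. Without replicate 3, 16 were below 0 (median -0.07), whereas 48.0% of all genes lay above 0. The list's median was -0.41 in WT and -0.27 in the liver knockout. Hmgcs1, the entry enzyme of the pathway, read 12.69, 12.72 and 12.75 with vehicle and 13.20, 11.93 and 12.21 with GW4064. One GW4064 array was above and the others below every vehicle array. Metallothionein 1 (Mt1), which binds zinc, spread more, with 11.61, 12.28 and 12.68 with vehicle and 8.92, 11.84 and 13.95 with GW4064, as did the pair member Mt2, whose GW4064 arrays ran from 7.79 to 13.23. Asns, which makes asparagine, read 8.85, 8.85 and 8.76 with vehicle and 9.87, 7.69 and 9.84 with GW4064. Its vehicle arrays were nearly equal and its GW4064 arrays lay on both sides of them.

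The other lists held few genes past an unadjusted p of 0.05, beside 2.88% and 3.37% of all genes. Among metabolic lists, 1 was higher and 1 lower of 34 genes of fatty acid oxidation, 1 and 1 of 26 of fatty acid and triglyceride synthesis, 0 and 3 of 25 of glucose metabolism, 1 and 1 of 24 of lipoproteins, 0 and 2 of 33 of the urea cycle and amino acid breakdown, 0 and 1 of 20 of cholesterol synthesis, 0 and 0 of 23 of retinol metabolism and 1 and 2 of 17 of conjugating enzymes. Without replicate 3, none of these lists held more than 1 such gene. Slc2a2, the glucose carrier GLUT2 of hepatocytes, read 12.24, 12.29 and 12.38 with vehicle and 12.20, 11.88 and 11.05 with GW4064, a difference of -0.59 ± 0.26 and of -0.26 without replicate 3. Lpl, lipoprotein lipase, read 7.93, 7.65 and 7.58 with vehicle and 8.24, 8.17 and 10.54 with GW4064, a difference of 1.26 ± 0.46 and of 0.48 without replicate 3. Angptl4, an inhibitor of that lipase, differed by -0.72 ± 0.25 with overlap between the groups, by -0.43 without replicate 3, and with the opposite sign in the other of its 2 probe sets. Slc2a2 and Lpl did not overlap between the groups, and replicate 3 was the extreme array of both.

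Among signalling lists, 2 were higher and 3 lower of 21 cAMP and CREB targets, 0 and 3 of 23 genes of IL-1 and IL-6 signalling, 0 and 1 of 26 NF-kB targets and chemokines, 1 and 0 of 24 interferon-induced genes, 1 and 2 of 20 glucocorticoid targets, 1 and 0 of 17 genes of p53 and growth arrest, 1 and 0 of 22 ERR targets, 2 and 2 of 24 of autophagy and lysosome, 2 and 0 of 26 of the cell cycle, 1 and 1 of 17 of metal transport and 0 and 0 of 37 of complement and coagulation. Without replicate 3, metal transport had 1 higher and 1 lower, autophagy and lysosome 0 and 2, and each of the others at most 1 in all. Irs2, an adaptor of the insulin receptor, read 5.86, 5.83 and 5.75 with vehicle and 5.61, 5.51 and 5.48 with GW4064, a difference of -0.28 ± 0.12. Id1, which BMP signalling induces in liver, read 6.96, 6.78 and 6.52 with vehicle and 6.51, 6.27 and 6.03 with GW4064, a difference of -0.48 ± 0.23, and -0.45 ± 0.23 in the liver knockout. Il1b, the cytokine interleukin-1 beta, read 6.20, 6.29 and 5.96 with vehicle and 5.73, 5.68 and 5.86 with GW4064, a difference of -0.40 ± 0.15. In all 3 genes the GW4064 arrays lay below the vehicle arrays. Oasl1, an interferon-induced gene, read 6.68, 6.70 and 6.51 with vehicle and 7.28, 6.87 and 7.49 with GW4064, a difference of 0.58 ± 0.18, with no overlap.

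The remaining cell type lists are given at an unadjusted p under 0.05, where 2.88% of all genes were higher and 3.37% lower. Of 17 Kupffer cell and 13 neutrophil markers, 0 differed in either direction, and 1 was higher and 1 lower of 16 lymphocyte markers and of 11 cholangiocyte markers. Of the 17 Kupffer cell markers, 15 lay above 0, beside 45.9% of all genes, but only 2 did without replicate 3, beside 48.0%. Aqp1, a water channel of bile ducts and endothelium, read 9.88, 9.68 and 9.69 with vehicle and 9.47, 9.31 and 8.77 with GW4064, a difference of -0.57 ± 0.24 without overlap (-0.36 without replicate 3), and -0.56 ± 0.24 in WT. Pericentral hepatocyte genes had 0 of 15 higher and 2 lower, periportal genes 0 of 12 in either direction, and erythroid and platelet markers 0 of 10 higher and 1 lower.

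The genes at the study's thresholds were compared across genotypes. Of the 67 genes, 9 were also among the 212 of WT, which is 13.4% of the 67 and 4.25% of the 212, beside 0.783% and 0.928% of all genes higher and lower in WT, and 5 of the 9 had the same direction. With the 57 genes of the liver knockout, 9 were shared as well, 3 in the same direction, beside 0.226% and 0.234% of all genes there. Without replicate 3, 3 of the 17 genes were shared with WT. Trim24, a transcriptional cofactor known as a suppressor of liver tumors in mice, was the 1 gene past these thresholds in all 3 genotypes, higher in each. It read 6.68, 6.74 and 7.21 with vehicle and 6.98, 7.26 and 8.39 with GW4064, a difference of 0.67 ± 0.30, with vehicle replicate 3 above GW4064 replicate 1 and a difference of 0.25 ± 0.24 without replicate 3. In WT the difference was 1.14 ± 0.30 and in the liver knockout 1.15 ± 0.30. Over the 12394 genes, which are not independent of each other, the knockout effect had a Pearson correlation of 0.13 with the WT effect and 0.0175 without replicate 3. The correlation with the liver knockout effect was 0.0112.

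GW4064 replicate 3 was low in male-biased and high in female-biased liver genes. In mice, the pulsed growth hormone of males keeps male-biased liver genes on and female-biased genes off. Hsd3b5, a male-specific steroid dehydrogenase, read 12.15, 12.02 and 11.39 with vehicle and 11.92, 12.18 and 4.91 with GW4064, Elovl3, a fatty acid elongase, read 11.05, 11.60 and 8.07 with vehicle and 9.96, 10.16 and 4.13 with GW4064, and Slco1a1, an organic anion uptake carrier, read 11.49, 11.38 and 10.96 with vehicle and 11.29, 11.48 and 6.85 with GW4064. Each was lowest in replicate 3, although Elovl3 was also low in vehicle replicate 3. All 9 listed male-biased genes were lowest there, with an array median of -2.97 relative to the vehicle mean, against -0.46 to 0.30 in the other 5 arrays. A lower level with GW4064 was not limited to this array, since the list's median difference was -0.66 in WT, and -0.094 in the liver knockout. In WT, Hsd3b5 differed by -1.19 ± 1.24 and Elovl3 by -1.80 ± 1.20, both without overlap, and the cytochrome gene Cyp2d9 by 0.092 ± 0.51. The female-biased list had a median of 0.074 in WT. The male-biased and female-biased genes were split from a list of 23 after the values were seen. Of the 23, 13 were lowest and 6 highest in replicate 3. Across all genes, replicate 3 was the lowest of the 6 arrays in 27.5% and the highest in 20.9%. Cyp4a12a (6.94), Cyp2d9 (10.71) and Cyp7b1 (9.39), cytochromes with male bias, were among the 10 genes furthest below the other 5 arrays, next to Serpina12, Nox4, Nat8f5 and Moxd1.

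Several of the genes furthest above are known as female-biased in mice. Sult2a2, a sulfotransferase, read 3.88, 3.73 and 3.84 with vehicle and 4.04, 3.80 and 13.04 with GW4064, and the other 17 arrays of the series lay between 3.67 and 4.12. Sult3a1 read 3.62, 3.59 and 3.72 with vehicle and 3.70, 3.49 and 8.93 with GW4064, and Cyp2b9 read 5.14, 4.42 and 8.18 with vehicle and 7.19, 4.84 and 11.25 with GW4064. Cyp2b9 was also raised in vehicle replicate 3 and GW4064 replicate 1, whereas the sulfotransferases were not. Cyp2b13 (8.89), Hao2 (6.25), Slc22a26 (8.21), Sult1e1 (9.44), Vldlr (8.81) and the acute-phase genes Lcn2 (11.94) and Orm2 (10.38) completed the 10 (log2 levels in replicate 3). Of 7 listed female-biased genes, 6 were highest in replicate 3, beside 20.9% of all genes. Genes of the sex chromosomes read as in males, with the X-inactivation RNA Xist at 5.52 there and 5.19 to 6.11 in the other 17 arrays. The Y-linked Kdm5d and Uty read 6.37 and 6.59 there, and Eif2s3y read 7.99, below the 8.17 to 9.32 of the other 17 arrays.

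**Figure D4:**
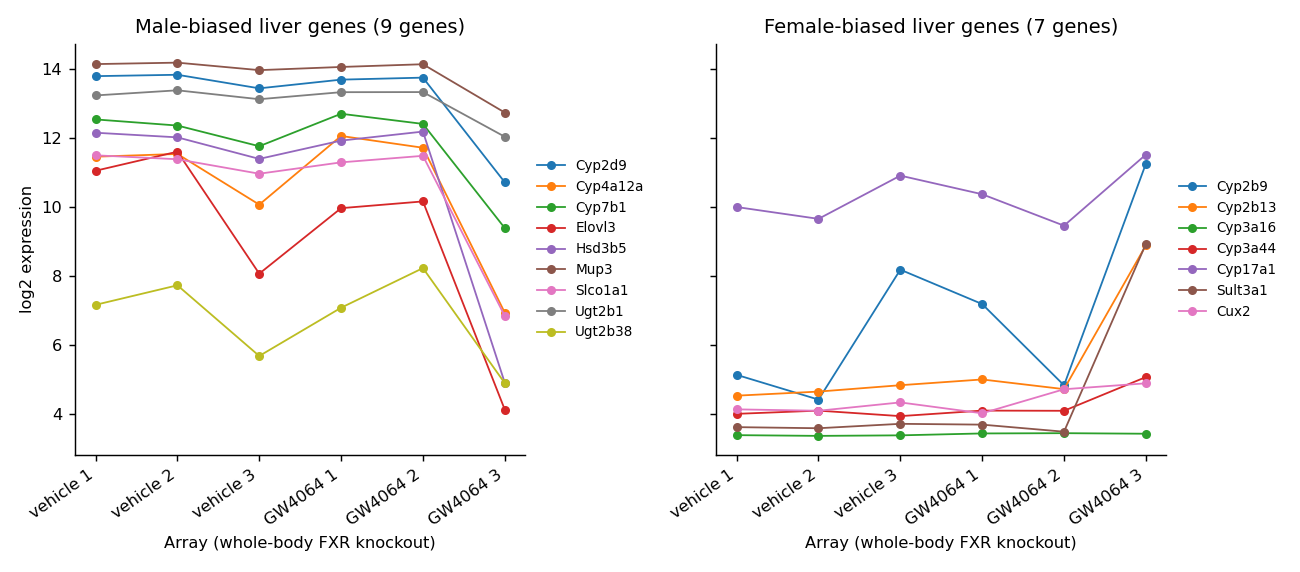
Log2 expression (y axis) of 9 male-biased and 7 female-biased liver genes in each of the 6 whole-body FXR knockout arrays (x axis; each line is 1 gene and joins its arrays, which have no order). Every male-biased gene is lowest in GW4064 replicate 3, and Cyp2b9, Cyp2b13 and Sult3a1 are highest there.

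Acute-phase genes were raised in the same array. Of 30 listed genes, 25 were highest in replicate 3, beside 20.9% of all genes, with an array median of 0.42 against -0.073 to 0.059 in the other 5 arrays. Lcn2, an iron-binding protein of the acute-phase response, read 7.88, 8.11 and 9.14 with vehicle and 9.78, 8.52 and 11.94 with GW4064, and in WT with GW4064 the arrays ran from 8.22 to 13.65. Cyclin D1 (Ccnd1), which drives cells out of rest, read 7.09, 6.97 and 7.05 with vehicle and 7.75, 7.30 and 9.54 with GW4064. Of 17 macrophage markers, 12 were highest in replicate 3 and 1, Cd163, was lowest there, beside 20.9% and 27.5% of all genes. Their array median was 0.47 in replicate 3 against -0.19 to 0.24 elsewhere, and the part of these cells in the pattern was not tested. Since no label sets this animal apart, its condition and its treatment cannot be told apart here.

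**Figure D5:**
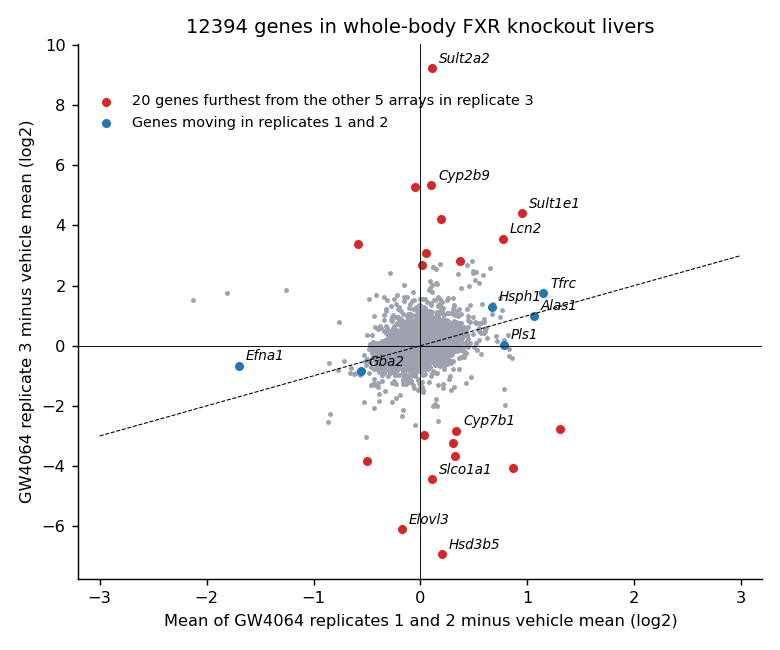
Difference from the vehicle mean of each of 12394 genes in GW4064 replicate 3 (y axis, log2) against the mean of GW4064 replicates 1 and 2 (x axis, log2). The dashed line marks equal change. Red points are the 20 genes furthest from the other 5 arrays in replicate 3, and blue points are genes that moved in replicates 1 and 2. Sult2a2, Cyp2b9, Hsd3b5 and Elovl3 lie far from 0 on the y axis alone, whereas Alas1 lies near the dashed line and Efna1 moved further in replicates 1 and 2.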

How the data were processed

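Liver RNA of 18 mice was hybridised to Affymetrix arrays, 1 array per mouse, with 3 mice in each of 6 groups (3 genotypes, GW4064 or vehicle). The authors processed the arrays with RMA (version not given), and the deposited values are log2 levels of 22690 probe sets with array medians of 5.96 to 6.0; no intensities or counts were used, so precision rests on the number of arrays. Probe sets were named from the platform annotation, 20393 with 1 symbol, 691 with several and 1606 with none, and 20364 were matched to RefSeq by gene ID with 0 symbols changed. Only those with 1 symbol were used, and each of 12394 genes was represented by its probe set with the highest mean (4958 genes had several). Differences were tested with limma 3.58.1 in R 4.3.3 on the means of all 6 groups, with Benjamini-Hochberg adjustment over all genes, and at the thresholds of the study (unadjusted p under 0.05 and 1.5 fold). The fit was checked on simulated data. The labels do not say whether the mice shared litters or cages, so p-values measure the spread between these animals.

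The members and lists were chosen with earlier results of these data known. Named genes are the 12 strongest in each direction with and without replicate 3 (by unadjusted p where fewer pass), the genes called in WT, up to 4 per list by p, the 10 furthest above and below in replicate 3, and those called in all 3 genotypes. These genes were named outside that rule after their values were seen: Acta2, Asns, Col3a1, Col4a2, Cyp2b10, Cyp3a11, Cyp7a1, Dbp, Ddit3, Des, Flt1, Fth1, Hamp, Hmgcs1, Hspa1b, Hspa5, Hspa8, Id1, Kdr, Lrat, Lyve1, Manf, Nr1i2, Nr1i3, Oit3, Pecam1, Per3, Ppara, Stab2, Tfr2 and the 4 genes of the sex chromosomes. The split of the growth hormone list into male-biased and female-biased genes was also made after the values were seen. Alternatives covered the samples in the fit, the prior for the spread, array weights, centring, quantile normalization, dim genes, the choice of probe set, the replicate number as a block, the methods' t-test and single arrays left out.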

Additional observations from a re-analysis of the deposited data

Results flagged for a closer look

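For 76 of 12394 genes, the GW4064 arrays did not overlap the vehicle arrays in WT and in the whole-body knockout but lay on opposite sides, and 129 genes lay on the same side in both. Of the 211 genes followed by name, 6 were among the 76. The WT effect minus the knockout effect, on the log2 scale, was 2.59 for Nr0b2, 1.67 for Rdh9, a retinol dehydrogenase, 0.63 for Xdh, -1.65 for Arntl, -1.44 for Samd4 and -1.08 for Col4a1. The adjusted p of this difference in limma was 0.193 for Nr0b2, Xdh and Samd4, 0.224 for Arntl and Col4a1, and 0.300 for Rdh9, so none passed.

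The first 3 genes were higher in WT and lower in the knockout. Rdh9 read 9.95, 10.30 and 10.55 with vehicle and 9.90, 9.70 and 9.57 with GW4064 in the knockout, a difference of -0.54 ± 0.27, and differed by 1.13 ± 0.27 in WT. Xdh differed by -0.14 ± 0.086 and 0.49 ± 0.086. Arntl, Samd4 and Col4a1 were lower in WT and higher in the knockout. Samd4 had a mean of 5.22 with vehicle and 5.76 with GW4064 in the knockout, a difference of 0.53 ± 0.19 against -0.91 ± 0.19 in WT. Without GW4064 replicate 3 of the knockout, the differences between the genotypes were 2.31 for Nr0b2, 1.60 for Rdh9, 0.65 for Xdh, -1.55 for Arntl, -1.50 for Samd4 and -0.93 for Col4a1.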

How the results depend on the processing

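The 67 genes at the study's thresholds became 28 with array weights and 11 with the methods' t-test, and 17 to 171 when 1 array was left out. The count past the adjusted threshold, 0, was 0 to 4 with 1 array left out. Without GW4064 replicate 3, the 17 genes became 28 in a fit of the whole-body knockout arrays alone, 11 with the 40% of genes with the lowest mean left out, 5 with the methods' t-test, and 21 to 61 with a further array left out. The 1 gene past the adjusted threshold there was Pls1. The fit of the knockout arrays alone, the fit with the dim genes left out and the t-test gave 0 genes each, and the count was 0 to 3 with a further array left out. The WT effect minus the knockout effect, 0 genes, gave 2 genes with the replicate block and 0 to 22 with 1 array left out, the 22 without WT GW4064 replicate 3. The liver knockout effect minus the whole-body knockout effect, 0 genes, gave 1 gene with array weights, 1 after quantile normalization and 0 to 1 with 1 array left out; the alternatives to this difference were chosen after seeing the data. The causes of these changes were not tested, beyond fewer genes or arrays entering a fit.

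Deviations of arrays with the same replicate number had positive correlations, 0.0951, 0.220 and 0.207 for numbers 1, 2 and 3. The labels name no batch, and whether arrays of the same number shared one was not tested. With the replicate block, 0 genes passed the adjusted threshold and 73 the study's thresholds in the whole-body knockout, and 1 and 22 without GW4064 replicate 3. No named gene changed sign between fits that both gave it an unadjusted p under 0.05. List medians were less stable, and without GW4064 replicate 3 that of the PXR and CAR targets went from 0.13 to -0.06 and that of the male-biased genes from -0.78 to 0.11. With 3 arrays against 3, 0 genes passed the adjusted threshold in the whole-body knockout and 24 in WT. With 3 against 2 in the knockout, without replicate 3, 1 gene passed. The reason for these unlike counts was not tested, and groups of this size are small.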
